A study of Mus musculus with 5 samples.

Results

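The genes described here are 9 genes of the MHC class II antigen presentation pathway in the mouse intestine, H2-Aa, H2-Ab1, H2-Eb1, H2-DMa, H2-DMb1, H2-Oa, H2-Ob, Cd74 and Ciita. They were chosen by symbol from the 32285 genes of the feature lists, and all 9 were found. Their counts were taken from single-cell RNA libraries of the duodenum, jejunum, ileum, colon and rectum of Mus musculus, 1 library for each segment. Epithelial, mesenchymal and immune cells negative for propidium iodide (5 µg/ml), which stains dead cells, were sorted before capture on the 10x Genomics platform. Strain, age, sex, treatment and the number of animals behind a library are not given in the sources used here, and spatial libraries named in the series' design were not analysed here. No segment has a second library, so the spread between libraries is a spread between segments.

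MHC class II molecules present peptides from endocytosed proteins to CD4 T cells. H2-Aa and H2-Ab1 encode the α and β chains of the I-A molecule, and H2-Eb1 encodes the β chain of I-E. Cd74 encodes the invariant chain, which occupies the peptide groove until the molecule reaches endosomes. H2-DMa and H2-DMb1 encode chains of H2-M, which exchanges the remnant of the invariant chain for peptide, and H2-Oa and H2-Ob encode H2-O, which inhibits H2-M. Ciita encodes the transactivator that binds the factors assembled on class II promoters and switches the genes on. Dendritic cells, macrophages and B cells carry class II constitutively, and intestinal epithelium can be induced to carry it by interferon gamma.

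In the RefSeq annotation of GRCm38.p6, 7 of the genes lie together on chromosome 17, from H2-Oa at 34092379 to 34095234 to H2-Eb1 at 34305867 to 34316674. H2-Aa is at 34282744 to 34287823 and H2-Ab1 at 34263227 to 34269418 of that chromosome. Ciita is on chromosome 16 at 10480014 to 10531064. Motifs were counted in the RefSeq promoter sequences of 6 of the 9 genes, all on chromosome 17. H2-Ab1 and Ciita had no matched entry. Cd74 was left out of the motif counts after the search had been run, and its outcome is not given here. For 5 of the 6, the 150 bases before the start are shown, since they hold motifs by which class II promoters are known. The capitals mark TGATTGG, the core of the Y box bound by NF-Y, and a form of the X box bound by the RFX complex, read as G, any base, any base, A, C, any base, G, A, T, G, both searched on both strands. The sequences run 5′ to 3′ on the strand of each gene.
H2-Aa, chr17:34287824-34287973, minus strand: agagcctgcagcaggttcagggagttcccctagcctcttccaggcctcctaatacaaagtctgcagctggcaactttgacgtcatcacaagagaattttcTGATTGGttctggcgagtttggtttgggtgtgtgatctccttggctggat
H2-Eb1, chr17:34305717-34305866, plus strand: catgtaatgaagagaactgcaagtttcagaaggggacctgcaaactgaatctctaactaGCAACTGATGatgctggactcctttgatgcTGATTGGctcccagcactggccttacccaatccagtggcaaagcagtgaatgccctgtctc
H2-DMb1, chr17:34153041-34153190, plus strand: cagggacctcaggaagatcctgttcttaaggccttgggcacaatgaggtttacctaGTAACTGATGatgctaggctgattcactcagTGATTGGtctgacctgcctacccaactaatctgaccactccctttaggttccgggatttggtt
H2-Oa, chr17:34092229-34092378, plus strand: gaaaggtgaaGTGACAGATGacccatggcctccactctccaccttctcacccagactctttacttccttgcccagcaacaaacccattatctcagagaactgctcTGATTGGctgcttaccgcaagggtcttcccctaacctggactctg
H2-Ob, chr17:34238755-34238904, plus strand: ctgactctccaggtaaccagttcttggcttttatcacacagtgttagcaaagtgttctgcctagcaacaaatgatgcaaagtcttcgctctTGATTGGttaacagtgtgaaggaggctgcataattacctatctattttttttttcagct

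Of the 6 genes counted, without Cd74, 5 held the Y box core, and 3 of those, H2-Eb1, H2-DMb1 and H2-Oa, also held the X box form. Over all 32851 promoter windows of 300 bases in the same table, 7.82% held the Y box core and 2.97% held the X box form on either strand. The promoter windows of H2-DMa held neither string of letters. The 150 bases before their starts, 34122682 to 34122831 and 34125368 to 34125517, lie inside the annotated gene at 34119693 to 34139101. Windows at other starts of H2-DMa were not read. These matches describe letters and not sites.

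After filtering, 11922 of 16535 deposited barcodes were kept as cells, 1829 to 3196 in a library, with 35107567 to 53918649 unique molecular identifiers (UMIs, counts of captured RNA molecules) in a library. Of the kept barcode sequences, 15 occurred in more than 1 library. The cells fell into 34 clusters, which were formed without the 9 genes among the variable genes and named only from marker lists. The macrophage-like class held 502 cells (100, 102, 84, 110 and 106 from duodenum to rectum). Its whole list of 13 markers was higher in it than in all other cells, led by C1qa, C1qb and C1qc. The dendritic-like class held 428 cells (183, 134, 33, 15 and 63), and all 13 of its markers were higher in it, among them Flt3, Xcr1 and Cd209a. By the naming rule given below, 9 of the 13 were raised in its Xcr1-led cluster and 8 in its Cd209a-led cluster. Since the lists named the clusters, such counts describe the naming and do not test it. The B-like class held 3629 cells and had all 12 of its markers higher. The stromal-like class of fibroblasts, smooth muscle and pericytes held 578 cells, of which 52, 15 and 27 came from the 3 small intestinal segments, and the epithelial-like class held 4913 cells. A cluster of 183 cells led by Rgs13, Mef2b and Mybl1 had both B and plasma cell markers raised and was left without a name. Levels below are in CPM, the UMIs of a gene summed over the cells of a class in a library and scaled to a common total of UMIs. In pooled UMIs, fewer cells with a gene and less of its RNA in each cell cannot be told apart.

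The highest class II levels were in macrophage-like and dendritic-like cells, and B-like cells followed. The class II core, the summed UMIs of H2-Aa, H2-Ab1, H2-Eb1 and Cd74, stood in macrophage-like cells at 58592 CPM in duodenum, 43026 in jejunum, 49730 in ileum, 57633 in colon and 63173 in rectum. Dendritic-like cells had 53577, 39845, 50699, 38697 and 47372 CPM of the core in the same order. B-like cells had 25399, 23611, 24854, 24318 and 28406 CPM. The macrophage-like and dendritic-like ranges overlapped each other, and neither overlapped the B-like range. Within libraries the core was 1.82-fold to 2.37-fold higher in macrophage-like than in B-like cells (mean log2 fold 1.09 ± 0.16, SD over 5 libraries). It was 1.59-fold to 2.11-fold higher in dendritic-like than in B-like cells (0.85 ± 0.19). Between macrophage-like and dendritic-like cells the mean log2 fold was 0.24 ± 0.25, with macrophage-like cells higher in 4 of 5 libraries, so the difference was smaller than its spread. These comparisons carry no p-value, since an exact two-sided permutation test paired over 5 libraries cannot go below 0.0625.

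Counted per cell the gap to B-like cells was wider, and the median number of UMIs per cell was 16354.5 in dendritic-like and 3271 in B-like cells. A macrophage-like cell held on average 517 core UMIs, a dendritic-like cell 868 and a B-like cell 91.9. Of dendritic-like cells 99.1% held at least 1 core UMI, and of B-like cells 99.9%.

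**Figure D1:**
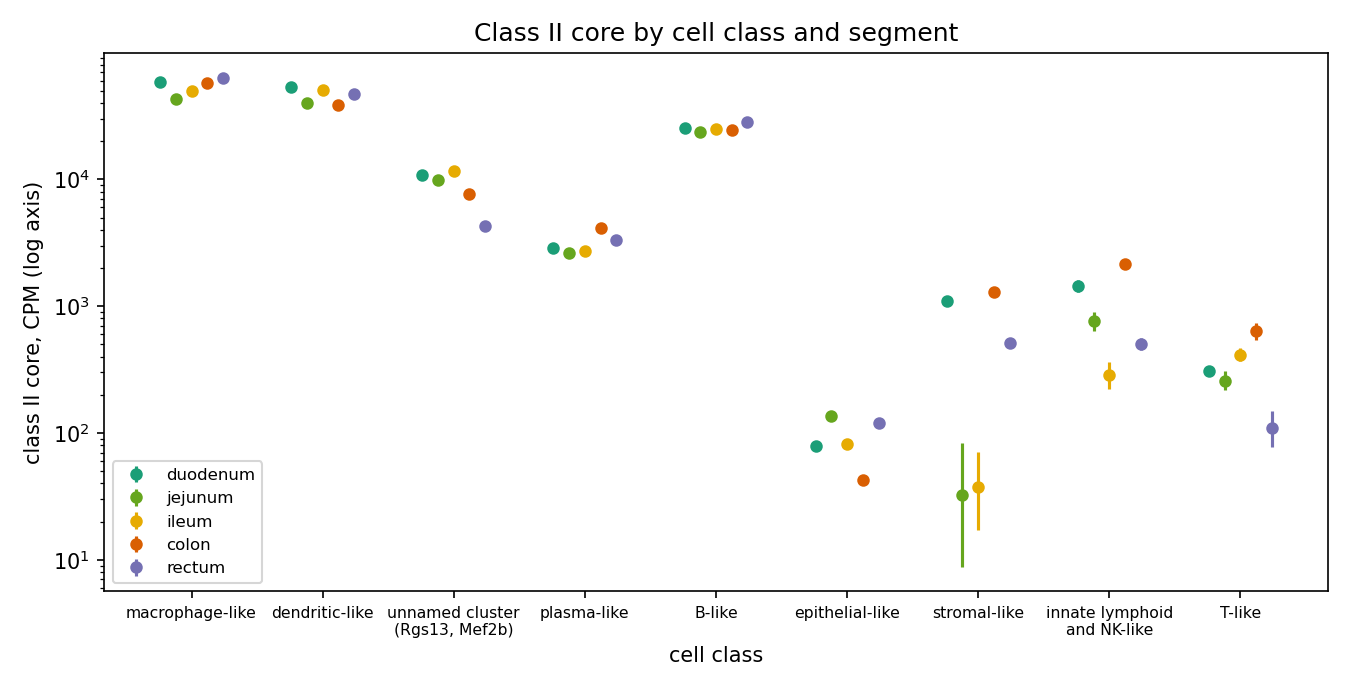
Class II core in CPM on a log axis for 9 cell classes; each point is 1 library, coloured by segment, and bars are exact 95% Poisson intervals that cover counting error only. Macrophage-like and dendritic-like points lie above all B-like points, and the epithelial-like points lie between 42.6 and 137 CPM.

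The I-A chains followed the order of the core. H2-Aa stood at 11424, 9842, 10670, 13049 and 13493 CPM in macrophage-like cells from duodenum to rectum, and at 11449, 9375, 11377, 8580 and 10648 CPM in dendritic-like cells. B-like cells had 4814 to 5199 CPM, a 1.08-fold range over segments. H2-Ab1 ranged from 8228 to 11972 CPM in macrophage-like cells, from 7320 to 10707 CPM in dendritic-like cells and from 3010 to 4007 CPM in B-like cells. For every 100 UMIs of H2-Aa there were 82.5 to 104 of H2-Ab1 in macrophage-like cells, 85.3 to 93.5 in dendritic-like cells and 58.8 to 77.1 in B-like cells. The α and β chains were therefore closer to equal UMI numbers in the 2 myeloid classes than in B-like cells in each of the 5 libraries. Counts were not scaled by gene length, so such ratios compare classes and not genes.

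Cd74, the invariant chain gene, lies on chromosome 18 at 60803849 to 60812652. It ranged from 24780 to 37416 CPM in macrophage-like cells, from 22138 to 31123 CPM in dendritic-like cells and from 15102 to 18949 CPM in B-like cells. Its fold over B-like cells, 1.64 to 2.10 in macrophage-like cells and 1.41 to 1.83 in dendritic-like cells, was below that of H2-Ab1 in the same libraries, which was 2.48 to 3.57 and 2.43 to 3.23. For every 100 UMIs of H2-Aa there were 252 to 307 of Cd74 in macrophage-like and 236 to 272 in dendritic-like cells, against 306 to 364 in B-like cells. The macrophage-like and B-like ranges met only at duodenal macrophage-like and jejunal B-like cells.

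**Figure D2:**
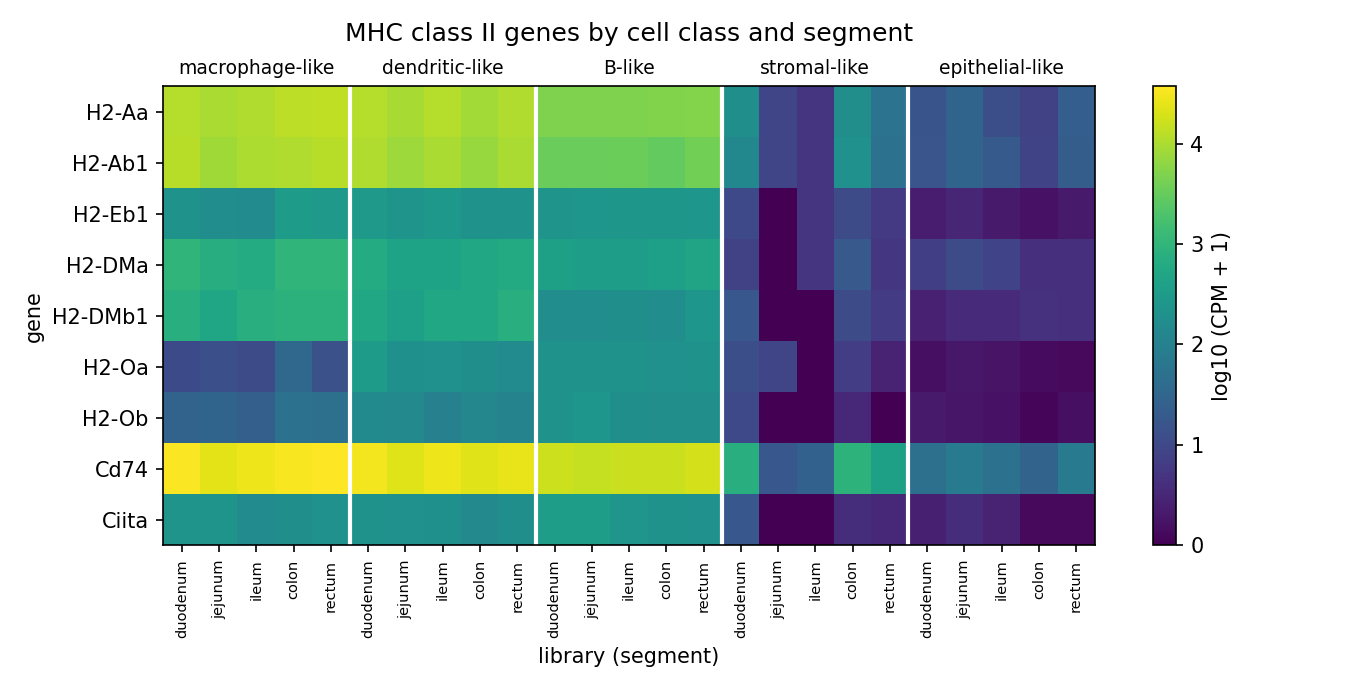
Level of each gene as log10 (CPM + 1), in colour, in 5 cell classes with the 5 segments from duodenum to rectum within each. H2-Oa and H2-Ob are the rows in which macrophage-like cells stand below dendritic-like and B-like cells, with H2-Oa at 9.66 to 33.2 CPM in macrophage-like cells.

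The peptide exchange genes were highest in macrophage-like cells. H2-DMa stood at 999, 696, 653, 975 and 970 CPM in macrophage-like cells, at 644, 454, 443, 543 and 635 CPM in dendritic-like cells and at 392, 366, 368, 384 and 459 CPM in B-like cells. The macrophage-like range overlapped neither of the others, and the dendritic-like and B-like ranges overlapped, although dendritic-like cells were higher in all 5 libraries, by 1.20-fold to 1.64-fold. H2-DMb1 stood at 757, 515, 728, 876 and 882 CPM in macrophage-like cells, at 526, 374, 518, 536 and 727 CPM in dendritic-like cells and at 170, 170, 190, 177 and 252 CPM in B-like cells. It was 3.02-fold to 4.95-fold higher in macrophage-like than in B-like cells, the largest such fold of the 9 genes. The H2-DMa gene overlaps Brd2 over 3122 bases, and how reads there were assigned was not tested. Brd2 itself stood at 127 to 164 CPM in macrophage-like, 80.1 to 119 in dendritic-like and 98.0 to 147 in B-like cells.

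H2-DMb2, a second β chain gene beside H2-DMb1, had the opposite order. Its level was 104 to 199 CPM in macrophage-like cells, 200 to 303 CPM in dendritic-like cells and 472 to 589 CPM in B-like cells, with no overlap between any of the 3 ranges. H2-DMb1 and H2-DMb2 are close in sequence, and how the counting split reads between them was not tested. H2-Eb2, the other additional class II gene in the feature lists, stood at 0 to 11.5 CPM in macrophage-like, 2.14 to 13.9 in dendritic-like and 74.1 to 110 CPM in B-like cells.

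The H2-O chains separated the myeloid classes from each other. H2-Oa stood at 9.66, 11.9, 10.1, 33.2 and 12.7 CPM in macrophage-like cells, from 6 to 36 UMIs in a library. Dendritic-like cells had 326, 198, 206, 191 and 158 CPM, and B-like cells had 224, 218, 217, 208 and 210 CPM. Macrophage-like cells lay far below both other classes in every library, with H2-Oa lower than in dendritic-like cells by a mean log2 fold of -3.93 ± 0.94 and lower than in B-like cells by -3.97 ± 0.76 (SD, 5 libraries). Dendritic-like and B-like cells did not separate, with dendritic-like cells higher in 1 of 5 libraries and a mean log2 fold of -0.04 ± 0.35. H2-Ob stood at 27.4, 28.5, 23.1, 48.8 and 47.9 CPM in macrophage-like cells, at 154, 141, 98.6, 129 and 112 CPM in dendritic-like cells and at 211, 252, 191, 178 and 182 CPM in B-like cells. None of those 3 ranges overlapped another. H2-Oa overlaps BC051537 over its whole annotated length of 2856 bases, and BC051537 itself had 0 to 4.12 CPM in the 5 classes. The part of its reads in the H2-Oa count was not tested.

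Macrophage-like cells also held B marker UMIs, which summed over 6 B cell genes, among them Cd79a, Cd79b and Ms4a1, to 154 to 502 CPM, against 5815 to 6112 CPM in B-like cells. Dendritic-like cells held 35.6 to 170 CPM of those markers. The part of B cell RNA in the low H2-Oa and H2-Ob levels of macrophage-like cells was not tested.

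**Figure D3:**
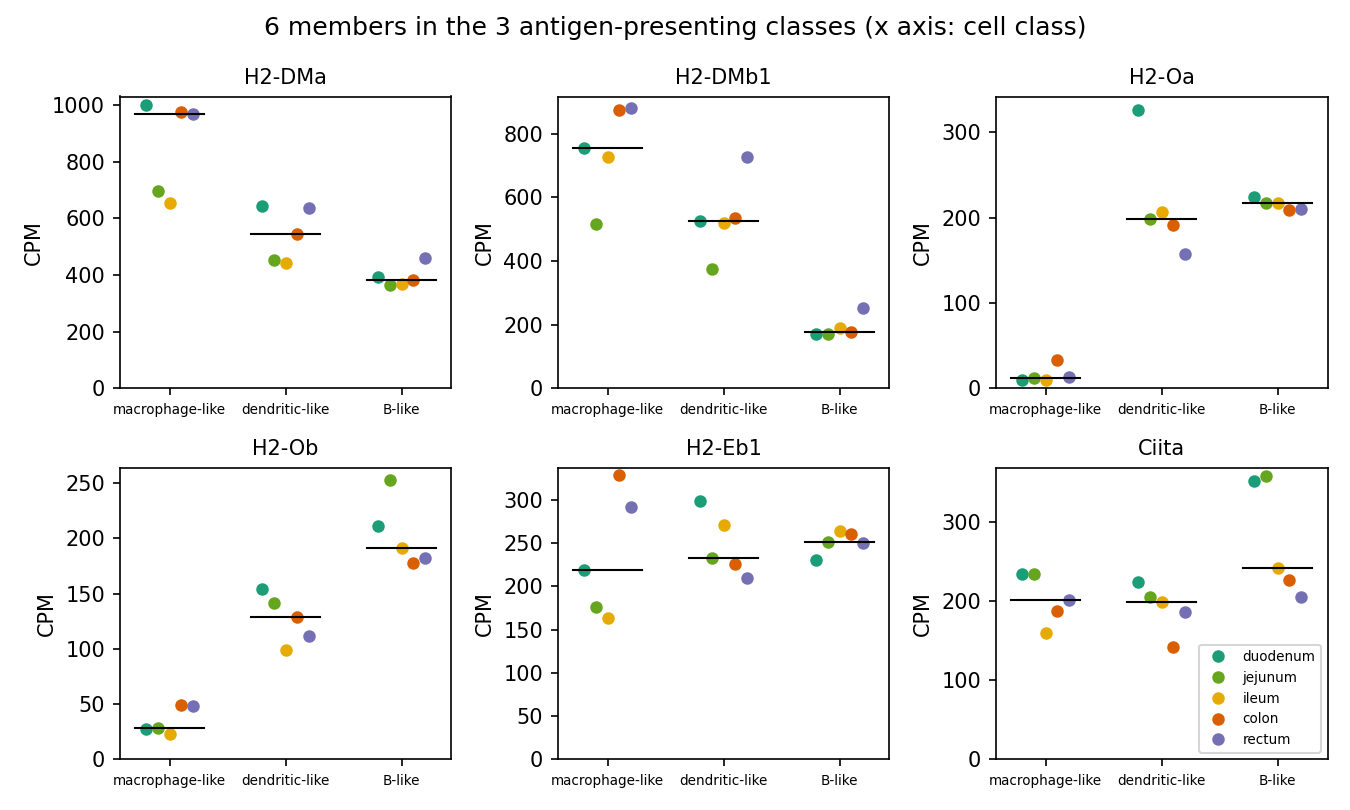
CPM of 6 genes in macrophage-like, dendritic-like and B-like cells; points are libraries coloured by segment, the bar is the median of the 5 libraries and each axis starts at 0. H2-DMa and H2-DMb1 are highest in macrophage-like cells, H2-Ob is highest in B-like cells, and H2-Eb1 overlaps between all classes.

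H2-Eb1 and Ciita differed least. H2-Eb1 stood at 219, 176, 163, 329 and 292 CPM in macrophage-like cells, at 299, 232, 271, 226 and 210 CPM in dendritic-like cells and at 231, 251, 264, 260 and 251 CPM in B-like cells, and the ranges all overlapped. For every 100 UMIs of H2-Aa there were 1.53 to 2.52 of H2-Eb1 in macrophage-like and 1.97 to 2.64 in dendritic-like cells, against 4.79 to 5.44 in B-like cells. Ciita stood at 235, 235, 160, 188 and 202 CPM in macrophage-like cells, at 224, 205, 199, 143 and 186 CPM in dendritic-like cells and at 353, 358, 242, 226 and 206 CPM in B-like cells. The transactivator was thus lower in both myeloid classes than in B-like cells in all 5 libraries, by a mean log2 fold of -0.42 ± 0.26 in macrophage-like and -0.51 ± 0.28 in dendritic-like cells, while the I-A chains were higher there. The ranges of Ciita overlapped between classes.

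Counted by gene, macrophage-like cells were higher than B-like cells in all 5 libraries for 5 of the 9 genes (H2-Aa, H2-Ab1, H2-DMa, H2-DMb1 and Cd74), where 28.7% of 10451 genes tested were. They were lower for 3 of the 9 (H2-Oa, H2-Ob and Ciita), where 29.6% of those genes were. Dendritic-like cells were higher than B-like cells for the same 5 genes, where 21.5% of 10642 genes tested were, and lower for 2 (H2-Ob and Ciita), where 28.5% were. Macrophage-like cells were higher than dendritic-like cells for 3 (H2-Ab1, H2-DMa and H2-DMb1), where 24.4% of 10028 genes tested were, and lower for 2 (H2-Oa and H2-Ob), where 16.6% were. The median log2 fold of the 9 genes was 0.94 for macrophage-like over B-like cells, beside -0.06 over all genes tested, and 0.47 for dendritic-like over B-like cells, beside -0.12. The pairs of classes share libraries and groups of cells, so their counts are not independent.

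The dendritic-like class was made of 2 clusters, one of 124 cells led by Xcr1, Clec9a and Naaa and one of 304 cells led by Cd209a, Il1r2, Ifitm6 and Il1b. The Xcr1-led cluster gave 48 of the 63 rectal and 10 of the 15 colonic dendritic-like cells, and the Cd209a-led cluster gave 148 of the 183 duodenal and 111 of the 134 jejunal ones. Their core levels were alike when all libraries were pooled, at 46034 CPM in the Xcr1-led and 46695 CPM in the Cd209a-led cluster. Within libraries the order varied, with the Xcr1-led cluster at 61155 against 46472 CPM in ileum and 37280 against 45449 CPM in colon. H2-DMb1 was higher in the Xcr1-led cluster in all 5 libraries, with 446 to 756 CPM against 281 to 584 CPM, and so was Ciita, with 147 to 297 CPM against 113 to 193 CPM. H2-Oa was lower in the Xcr1-led cluster in all 5 libraries, with 119 to 187 CPM against 214 to 392 CPM. Among 8629 genes tested, 7.27% were higher and 12.9% lower in the Xcr1-led cluster in all 5 libraries, beside 2 and 1 of the 9 genes. These counts are a description, since genes of the same cells formed the clusters. The Cd209a-led cluster held only 5 colonic cells, and the Xcr1-led cluster only 8 ileal cells.

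B-like cells formed 3 clusters, whose core levels lay close together with all libraries pooled. A cluster of 798 cells led by interferon-inducible genes such as Ifi209, Ifi208 and Ifi206, drawn almost wholly from the small intestine (393, 118, 281, 6 and 0 cells), had 24094 CPM of the core. The cluster of 1663 cells led by Ighd, Fcer2a and Bank1 had 26550 CPM, and the cluster of 1168 cells led by Ebf1 and Bank1 had 24350 CPM. Ciita stood at 298, 331 and 230 CPM in those clusters with all libraries pooled. Within every library the cluster of 1663 cells had more core than that of 1168 cells, from duodenum to rectum 26289, 25432, 27025, 24619 and 28756 against 23449, 20054, 22030, 24278 and 28206 CPM. It was also above the cluster of 798 cells in each library where that had cells. Ciita was lower in the cluster of 1168 than of 1663 cells in every library. No share of all genes was taken for these orders.

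In plasma-like cells Cd74 was nearer to its B-like level than the I-A chains were. In 507 such cells Cd74 stood at 2189 to 3383 CPM, H2-Ab1 at 266 to 434, H2-Aa at 49.6 to 319 and Ciita at 0.824 to 12.0 CPM. The level in plasma-like cells was 0.135 to 0.212 of that in B-like cells for Cd74, and 0.010 to 0.062 for H2-Aa. For every 100 UMIs of H2-Aa there were 1059 to 5476 of Cd74 in plasma-like cells, against 306 to 364 in B-like cells. All 9 genes were lower than in B-like cells in all 5 libraries, where 72.3% of 10251 genes tested were lower and 6.97% higher. Immunoglobulin RNA made up 59.9% to 66.5% of the UMIs of plasma-like cells. With immunoglobulin genes left out of the totals, an alternative chosen after seeing the data, all 9 genes were still lower, where 23.9% of 10137 genes were, and the mean log2 fold of the core was -1.58 in place of -3.02. Per cell the order differed by gene: a plasma-like cell held on average 84.8 Cd74 UMIs against 60.6 in a B-like cell, and 2.996 H2-Aa UMIs against 17.9.

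The unnamed cluster led by Rgs13 lay between plasma-like and B-like cells. Its core stood at 10908, 9935, 11567, 7719 and 4250 CPM from duodenum to rectum, lowest in the rectal library. Of the 9 genes 8 were lower than in B-like cells in all 5 libraries, where 24.5% of 9879 genes tested were lower and 14.4% higher, and the exception was H2-Eb1, with a fold of 1.01 in the duodenum. H2-Eb1 made up 11.9 to 13.6 UMIs for every 100 of H2-Aa in the cluster, against 4.79 to 5.44 in B-like cells. The mean log2 fold of the core was -1.59 ± 0.67 over 5 libraries and -1.31 ± 0.24 without the rectal library.

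Genes that act with class II were read from lists. Of 6 genes for processing and turnover, 5 were higher in macrophage-like than in B-like cells in all 5 libraries, where 28.7% of all genes tested were. They were Ctss, the protease that trims the invariant chain, Ctsl, Lgmn, the thiol reductase gene Ifi30, and March8. The exception was March1, which encodes a ligase that removes class II from the surface. Ctss stood at 1914 to 3458 CPM in macrophage-like, 428 to 685 in dendritic-like and 381 to 501 CPM in B-like cells. Lgmn stood at 1329 to 2137 CPM in macrophage-like, 54.7 to 109 in dendritic-like and 55.0 to 64.8 CPM in B-like cells. Ifi30 stood at 557 to 751 CPM in macrophage-like and 505 to 1291 CPM in dendritic-like cells, against 306 to 510 CPM in B-like cells. Of 5 of these genes tested between dendritic-like and B-like cells, 3 were higher (Ctss, Ctsl and Ifi30) and 1 lower (March1), where 21.5% of all genes tested were higher and 28.5% lower.

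The factors that bind class II promoters were read in the same way. Of 7 genes, 0 were higher and 4 lower (Rfx5, Creb1, Nfyb and Nfyc) in macrophage-like than in B-like cells, and 1 was higher (Rfxap) and 4 lower (Rfx5, Rfxank, Nfyb and Nfyc) in dendritic-like than in B-like cells. Over all genes tested, 28.7% were higher and 29.6% lower in macrophage-like than in B-like cells, and 21.5% were higher and 28.5% lower in dendritic-like than in B-like cells. Rfx5, a subunit of the complex that binds the X box, stood at 11.3 to 16.6 CPM in macrophage-like, 7.05 to 17.8 in dendritic-like and 19.8 to 30.3 CPM in B-like cells. Epithelial-like cells held all 7, with Rfxap at 20.1 to 29.4 CPM and Rfx5 at 4.13 to 5.61 CPM. Of 3 costimulatory genes, Cd80 and Cd86 were higher in macrophage-like than in B-like cells in all 5 libraries, and in dendritic-like cells Cd80 was higher and Cd40 lower, beside the same shares of all genes. Cd80 stood at 47.5 to 95.03 CPM in macrophage-like, 24.4 to 83.8 in dendritic-like and 0 to 9.46 CPM in B-like cells.

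Over the 25 sums of 5 classes by 5 libraries, the 10 genes whose log2(CPM + 1) followed the core most closely among 13821 genes were Laptm5, Ncf4, Hcls1, St8sia4, Cd48, Bin2, Ptprc, Cd86, Spi1 and Sla. Pearson's r was 0.997 for Laptm5, a lysosomal membrane protein of blood cells. Points of a library share its free RNA and those of a class share its depth, so r describes these sums and has no p. Within the set itself, r with the core was 0.998 for H2-Aa, 0.986 for H2-DMb1, 0.975 for Ciita, 0.914 for H2-Ob and 0.810 for H2-Oa. The H2-O chains thus followed the core least.

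Small and large intestine were compared by a rule of size, because no segment has a second library. A gene was counted as different between small and large intestine when its lowest library on 1 side was at least 4-fold above the highest on the other, with at least 50 UMIs in the class. In macrophage-like cells 0 of 9 genes passed in either direction, where 0.173% of 7520 genes were higher in small and 0.0266% higher in large intestine. In dendritic-like cells 0 of 9 passed, where 0.382% and 0.0811% of 8629 genes did, and in B-like cells 0 of 9 passed, where 0.481% and 0.0437% of 9154 genes did. Few of all genes passed, so 0 of 9 does not set the class II genes apart. The widest range of a single gene over segments among these classes was that of H2-Oa in macrophage-like cells, 3.43-fold, and H2-Eb1 and H2-Ob ranged 2.02-fold and 2.12-fold in the same class. The jejunal library had the lowest core level in macrophage-like and B-like cells and the colonic library had it in dendritic-like cells. In stromal-like cells only 3 genes reached 50 UMIs (H2-Aa, H2-Ab1 and Cd74) and 0 of them passed, where 0.0881% of 9078 genes did in each direction. With the duodenal library left out, those 3 stromal-like genes passed as higher in large intestine.

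In epithelial-like cells the core was far lower, with a median of 81.8 CPM over libraries, against 24854 CPM in B-like cells. It stood at 79.1, 137, 81.8, 42.6 and 120 CPM from duodenum to rectum. The exact 95% Poisson intervals were narrow, running 76.4 to 81.8 for the duodenum, 132 to 141 for the jejunum, 78.5 to 85.2 for the ileum, 40.5 to 44.8 for the colon and 116 to 125 for the rectum. The jejunal level was 3.21-fold the colonic level (exact interval 3.02 to 3.40). Such intervals cover counting error only. A single cell held 35.2% of the jejunal core UMIs. The fold of the highest over the lowest segment was 23.1 with at most 10% mitochondrial UMIs, 2.28 with no doublets removed and 1.73 without the colon. Of the epithelial-like cells 55.6% held a core UMI at a median depth of 31546 UMIs, against 36.4% of T-like cells, which should lack class II, at a median depth of 4345 UMIs. With each cell thinned to 1000 UMIs, leaving out 227 epithelial-like and 14 T-like cells, the shares were 6.36% and 11.9%. Before thinning the epithelial-like share was the higher, and after it the T-like share was, so no order was read from these shares.

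The order of the levels also depended on the quantity. In CPM the epithelial-like core was below the T-like core in duodenum (79.1 against 307 CPM), jejunum (137 against 259), ileum (81.8 against 416) and colon (42.6 against 632), and above it in rectum (120 against 109). In UMIs per cell it was above the T-like core in duodenum (2.99 against 1.45), jejunum (4.397 against 1.27) and rectum (3.39 against 0.506), and below it in ileum (2.06 against 2.34) and colon (1.40 against 2.38). The median epithelial-like cell held 1 core UMI in 4 libraries and 0 in the colon, and the median T-like cell held 0 in all 5. Epithelial-like cells also held more UMIs of all genes, as given above, and the part of free RNA in either order was not tested.

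Free RNA of a library was taken to keep its genes in 1 ratio in every cell, so the core was set against the B marker UMIs in the same cells. With the ratio of core to B marker UMIs of all immune cells of a library, the observed core UMIs in epithelial-like cells were 0.637, 0.856, 1.09, 0.733 and 0.820 of the number expected, from duodenum to rectum. The observed number was thus below the expected number in 4 libraries and 1.09 times it in the ileum. The B marker UMIs were unevenly spread over the cells. Of 503, 301, 336, 201 and 251 from duodenum to rectum, 177, 84, 143, 52 and 67 lay outside the 75 cells described below. The expected number therefore rests mostly on few cells, and the values without them differ, as given below. The reading also rests on which cells the free RNA came from. With the lower ratio of B-like cells alone, the median over libraries was 1.96, which is above 1. The ratio of epithelial-like to T-like core CPM, a different quantity that uses no B markers, had a median of 0.258. In UMIs per cell the epithelial-like core was above the T-like core in duodenum, jejunum and rectum, as given above.

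Most epithelial core UMIs were in few cells. Of 4913 epithelial-like cells, 75 held 20 or more core UMIs, and they held 58.0% of all core UMIs of the class. The share by segment was 52.9% in duodenum, 67.4% in jejunum, 36.5% in ileum, 59.4% in colon and 69.7% in rectum. Of those 75 cells, 61 also held 3 or more UMIs of markers of B cells, macrophages (C1qa, C1qb, C1qc, Csf1r and Ms4a7) or dendritic cells (Flt3, Zbtb46, Itgax, Cd209a, Clec9a and Xcr1), against 2.63% of the other epithelial-like cells. That last share was 9.97% in colon and 0.257% to 0.635% in the other segments. The macrophage and dendritic cell genes were narrowed to these after their values were seen. Of the 75 cells, 52 held 3 or more B marker UMIs. A single jejunal cell of the enteroendocrine-like group held 1235 core UMIs, which put that group at 520 CPM with the 5 libraries pooled. Without the 75 cells it had 33.9 CPM, close to goblet-like cells at 34.4, crypt-like cells at 32.6 and absorptive cells at 43.6 CPM.

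Without the 75 cells, an alternative chosen after seeing the data, the core stood at 38.2, 45.6, 52.7, 17.6 and 36.9 CPM from duodenum to rectum. The ileum was then highest in place of the jejunum, and the colon was still lowest. The observed core UMIs were 0.85 to 1.63 of the number expected from B marker UMIs, with a median of 1.0.

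**Figure D4:**
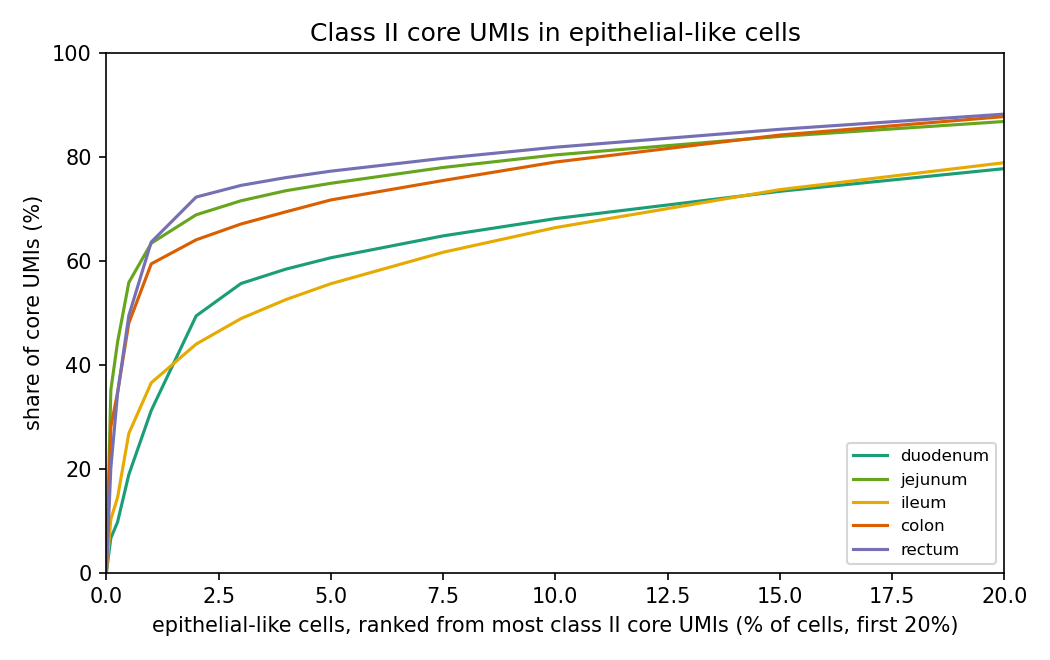
Share of class II core UMIs held by epithelial-like cells ranked from the most core UMIs, for the first 20% of cells of each segment; lines are libraries. The curves climb steeply at the left, and 75 of the 4913 cells hold 58.0% of the core UMIs.

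The 9 genes did not follow the core alike in epithelial-like cells. H2-Aa was at 0.564 to 0.843 of the number expected from B marker UMIs and Cd74 at 0.621 to 1.08 with the ratio of all immune cells. With the ratio of B-like cells alone H2-Aa was at 1.19 to 2.85 times and Cd74 at 1.41 to 2.55 times, above 1 in all 5 libraries. At the ratio of all immune cells H2-DMa was above expectation in all 5 libraries, at 3.44, 4.72, 7.13, 3.50 and 1.54 times the expected number. Its level was 6.003, 10.03, 7.41, 3.32 and 3.19 CPM. In T-like cells H2-DMa was at 1.94, 1.73, 2.15, 0.859 and 8.19 times, on 3 to 30 UMIs in a library. A value above 1 was thus not particular to epithelial-like cells. In epithelial-like cells H2-DMb1 was at 1.48, 1.73, 3.50, 5.05 and 1.96 times, H2-Eb1 at 1.46 to 1.87 times and H2-Ob at 1.04 to 1.94 times. The B-like ratio put H2-DMa at 3.59 to 13.6 times and H2-DMb1 at 4.78 to 22.3 times. Without the 75 cells with 20 or more core UMIs, H2-DMa was at 4.07 to 15.5 times and H2-DMb1 at 3.65 to 18.2 times the expected number, while H2-Aa was at 0.706 to 0.941 times. Brd2, which overlaps H2-DMa, had 127 to 171 CPM in epithelial-like cells, and the part of its reads in the H2-DMa count was not tested.

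**Figure D5:**
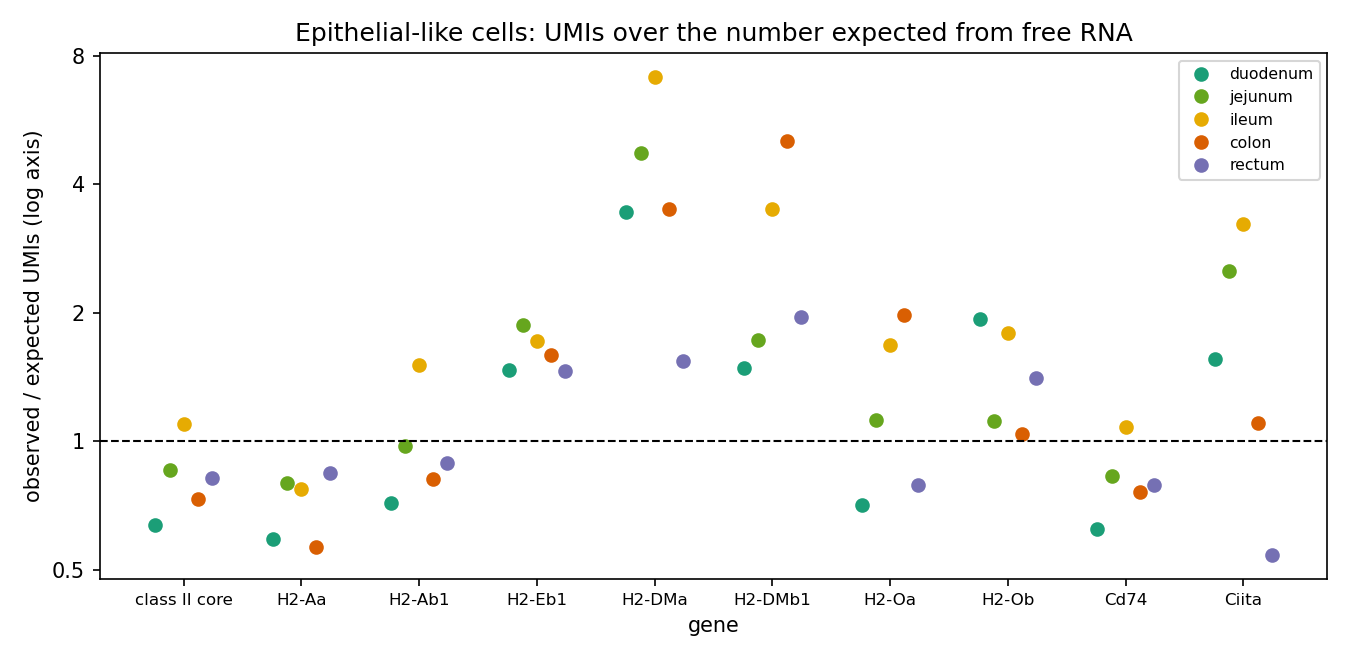
Observed UMIs in epithelial-like cells divided by the number expected from B marker UMIs at the ratio of each library's immune cells, on a log axis; points are libraries and the dashed line marks 1. H2-DMa and H2-DMb1 lie above the line in all 5 libraries and H2-Aa lies below it in all 5, whereas at the ratio of B-like cells alone, not plotted, H2-Aa is at 1.19 to 2.85. Most B marker UMIs behind the expected numbers lay in the 75 cells with 20 or more core UMIs.

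Ciita was the 1 gene of the 9 that passed the 4-fold rule in epithelial-like cells, where 2.72% of 13916 genes were higher in small and 2.23% higher in large intestine. It had 62 UMIs in duodenum, 78 in jejunum, 49 in ileum, 12 in colon and 7 in rectum, or 1.51, 3.03, 1.75, 0.324 and 0.315 CPM. Its lowest small intestinal level was 4.65-fold above its highest large intestinal level. Ciita was detected in 159 of the 4913 cells, 3.24%. Against B marker UMIs at the ratio of all immune cells it was at 1.56, 2.51, 3.22, 1.10 and 0.542 times the expected number, and at the ratio of B-like cells at 2.14, 4.21, 3.61, 1.60 and 0.787 times. The gap was below 4-fold under 4 of the other cell filters, to 2.45-fold with no doublets removed, 3.21-fold with at most 10% mitochondrial UMIs, 3.27-fold with at least 1000 genes and 3.66-fold with every deposited barcode kept. It was 8.15-fold, on 130 UMIs, without cells holding 20 or more core UMIs. Ciita overlaps Dexi and LOC115488669. Dexi stood at 7.996, 5.64, 9.08, 13.0 and 16.1 CPM from duodenum to rectum, and no level of LOC115488669 is given here. The part of the reads of either gene in the Ciita count was not tested.

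Among 10 genes of MHC class I presentation, 3 passed the same rule in epithelial-like cells, all higher in small intestine. Over all 13916 genes tested there, 2.72% were higher in small and 2.23% higher in large intestine. Tap1, a subunit of the peptide transporter, stood at 59.8, 65.2, 43.8, 5.78 and 7.55 CPM from duodenum to rectum. Psmb8, an immunoproteasome subunit, stood at 273, 208, 119, 19.97 and 23.3 CPM. Nlrc5, the transactivator of class I genes, stood at 1.02, 1.13, 1.99, 0.135 and 0.0899 CPM on 134 UMIs. Nlrc5 also passed in B-like cells, at 29.8, 36.9, 30.9, 4.94 and 2.64 CPM, where 0.481% of 9154 genes were higher in small intestine. Of 10 genes of the interferon gamma pathway tested in epithelial-like cells 0 passed, which beside those shares does not set them apart. Ifng itself had 92 UMIs in T-like cells and 0 UMIs in epithelial-like cells.

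In stromal-like cells the core ranged 39.8-fold over segments, the widest of any of the 5 classes. It stood at 1097, 32.4, 37.6, 1291 and 509 CPM from duodenum to rectum. The exact Poisson interval ran from 8.83 to 82.9 CPM for the 4 core UMIs of the jejunum and from 1237 to 1346 CPM for the 2188 of the colon. Of 578 stromal-like cells, 23 held 20 or more core UMIs and 92.5% of all core UMIs of the class, and 21 of those 23 held 3 or more B marker UMIs. Without them the core stood at 83.6, 32.4, 37.6, 80.3 and 64.5 CPM, so the range over segments narrowed to that between 32.4 and 83.6. The observed core UMIs of all stromal-like cells were 0.563, 0.293, 1.44, 0.885 and 0.509 of the number expected from B marker UMIs at the ratio of all immune cells. At the ratio of B-like cells they were 1.38, 0.985, 2.17, 2.36 and 1.35, which is above 1 in place of below it in duodenum, colon and rectum. The jejunal and ileal values each rest on 1 B marker UMI. Of the 82, 231 and 212 B marker UMIs in duodenum, colon and rectum, 4, 9 and 9 lay outside the 23 cells. The 6 remaining genes had 8 to 47 UMIs each over all stromal-like cells, fewer than the 50 required for a comparison of segments. The most, 47, were of H2-DMa, with 31 in the colon and 12 in the rectum.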

How the data were processed

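The deposited files give UMI counts for each gene in each barcode of 5 libraries, 1 per segment. Per the submitters' processing notes Cell Ranger 4.0.0, Seurat and mm10 were used; per the file headers the matrices were written by cellranger 7.2.0. Paired 150-base reads were sequenced, per the labels' protocols. Here, a barcode needed 300 or more genes and a mitochondrial share of UMIs no higher than 20%, which left 12255, and 333 cells with the highest Scrublet scores were removed, at 0.8% per 1000 deposited barcodes. Cells were scaled to 10000 UMIs, and 2000 variable genes without the 9 members, 30 principal components and 15 neighbours gave Leiden clusters at resolution 1 (scanpy 1.11.5). Clusters were named from marker lists: at least 3 markers raised 1.5-fold. The 9 members and all lists were chosen with earlier results of these data known. The genes named are the members, genes of the lists, the 10 genes most like the core, leading genes of clusters and genes overlapping a member. Levels are CPM of summed counts, with exact Poisson or Clopper-Pearson 95% intervals; order within libraries took genes with at least 50 UMIs in both classes together, and a gene with 0 UMIs in a library was set to 3 counts in the 4-fold rule. The rules were tested on simulated data. Gene positions and promoters are RefSeq's, GRCm38.p6. Alternatives covered filters, doublets, clustering, CPM per cell and left-out libraries. Some genes are not reported here.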

Additional observations from a re-analysis of the deposited data

How the results depend on the processing

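Cell classes were compared within libraries. Segments were not paired, since each has 1 library and the labels give no replicate numbers. The mean log2 fold of the core over B-like cells was above 0 for macrophage-like and dendritic-like cells under every alternative that was run. For the median core level, every deposited barcode kept gave 39390 CPM in dendritic-like and 22295 CPM in B-like cells, no doublets removed gave 39473 CPM in dendritic-like and 146 CPM in epithelial-like cells, at least 1000 genes gave 21740 CPM and Leiden resolution 2.0 gave 22253 CPM in B-like cells, and the mean over cells of CPM gave 147 CPM in epithelial-like cells. The core without Cd74, which by construction sums fewer genes, was 23471 CPM in macrophage-like, 20682 in dendritic-like, 8509 in B-like and 31.2 in epithelial-like cells. It gave a mean log2 fold over B-like cells of 1.37 in macrophage-like and 1.18 in dendritic-like cells. The macrophage-like over B-like mean log2 fold was 1.27 with every deposited barcode kept and 1.35 with at least 1000 genes. With cells holding a B marker UMI left out, 1 gene was lower in dendritic-like than in B-like cells. With every deposited barcode kept or Leiden resolution 2.0, 5 genes were higher in macrophage-like than in dendritic-like cells.

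Genes higher in small intestine by the 4-fold rule numbered 0 when no doublets were removed, when cells needed 1000 or more genes, when mitochondrial UMIs were limited to 10% and when all deposited barcodes were used. The epithelial-like highest-over-lowest fold was 3.88 with every deposited barcode kept, 23.1 with at most 10% mitochondrial UMIs, where the jejunal level was 1445 CPM, 2.28 with no doublets removed, 2.51 with cells holding a B marker UMI left out, 3.90 without Cd74 and 2.99 without cells holding 20 or more core UMIs. The rectum was highest in place of the jejunum with no doublets removed, with the mean over cells and with cells thinned to 1000 UMIs. The median observed over expected number was 1.26 with the mean over cells, 1.96 at the ratio of B-like cells and 1.0 without cells holding 20 or more core UMIs. The median ratio of epithelial-like to T-like core CPM, a different quantity, was 0.258. Except where the summed genes, the cells or the source of free RNA differ by construction, the cause was not tested.

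Leaving out 1 library at a time gave medians of 53681 to 58112 CPM in macrophage-like, 43609 to 49035 in dendritic-like, 24586 to 25126 in B-like, 273 to 803 in stromal-like and 80.4 to 101 CPM in epithelial-like cells. The epithelial-like highest-over-lowest fold was 1.73 to 3.21, lowest without the colon, and the genes higher in large intestine numbered 0 to 3, with 3 without the duodenum. Those 3 were in stromal-like cells, and no share of all genes was taken for that setting. Genes higher in macrophage-like than in dendritic-like cells numbered 3 to 5, with 5 without the ileum. The stromal-like class had 15 cells with 4 core UMIs in jejunum and 27 cells with 9 in ileum, which limits the precision there.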

Other observations

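In 2 further classes class II was again held by few cells. Of 131 endothelial-like cells, 2 held 94.2% of the core UMIs, and the level was 1990 CPM with and 123 CPM without them. Of 364 innate lymphoid and NK-like cells, 11 held 20 or more core UMIs and 76.2% of the total, and the level was 955 CPM with and 241 CPM without them. The 4613 barcodes that were not kept held 66675 core UMIs, or 1648 CPM, with 747 CPM in colon and 3849 CPM in rectum as the lowest and highest libraries.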
